A study of Mus musculus with 48 samples.

Results

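Integrated stress response genes were followed in the tibialis anterior, a fast hindlimb muscle of the mouse, in mice with and without pancreatic tumors and with and without the transcription factor FoxP1 in skeletal muscle. The 9 genes were Atf4, Ddit3, Trib3, Chac1, Asns, Sesn2, Fgf21, Gdf15 and Ppp1r15a, chosen by gene name out of 56748 genes in the deposited expression table. RNA sequencing had been done on 48 muscles in 24 groups of 2 mice. The groups crossed 2 genotypes (WT and FoxP1SkmKO) with 2 conditions (control and KPC) and 6 circadian times (CT18, CT22, CT26, CT30, CT34 and CT38), so that each genotype and condition held 12 mice. All mice were males, of 39 to 55 weeks by the labels, although the study's text elsewhere gives a younger age for its RNA data. The KPC mice carried tumors grown from murine KPC pancreatic cancer cells placed in the pancreas, and the controls were sham-operated, with cell-free saline placed in the pancreas instead. The FoxP1SkmKO mice had Foxp1fl/fl alleles and an Acta1-cre transgene, whose promoter is active in skeletal muscle fibers, so that other cells of the muscle kept Foxp1. For the WT mice the sources differ: C57BL/6J in the sample labels and Foxp1fl/fl without Cre in the series description. Muscles were collected in constant darkness after entrainment to a light and dark cycle. By the study's definition CT18 and CT22 fell in the active phase, CT26 after activity offset, CT30 and CT34 in the rest phase and CT38 after activity onset.

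The integrated stress response is a shared answer of cells to amino acid shortage, misfolded protein in the endoplasmic reticulum, mitochondrial failure and other insults. Kinases phosphorylate the translation factor eIF2, general protein synthesis falls, and translation of a few messages rises, above all that of Atf4, whose protein is the central transcription factor of the pathway. Because ATF4 is controlled largely by translation, the level of its mRNA is a poor guide to the amount of its protein. The products of the other 8 genes act downstream: CHOP (Ddit3) and TRIB3 regulate transcription and signaling, CHAC1 breaks down glutathione, ASNS makes asparagine, SESN2 restrains mTORC1, FGF21 and GDF15 are secreted hormones, and GADD34 (Ppp1r15a) directs dephosphorylation of eIF2. In muscle the pathway is known from mitochondrial myopathies and from fasting.

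The promoters of 4 of the 9 genes are shown because they hold the letters TGATGNAA, the core of the composite C/EBP-ATF element through which ATF4 is known to act. They were Chac1, Fgf21, Trib3 and Asns. RefSeq windows of 300 bases, from 250 before to 50 after the annotated start (GRCm38.p6, a different build from that of the expression data), matched all 9 genes, and both strands were searched. In the sequences, written 5′ to 3′ on the strand of the gene, capitals mark the matched letters, which appear as the reverse complement where the match was on the opposite strand. The Chac1 stretch is given whole, since Chac1 is the member whose level differed with tumor.
Chac1, all 250 bases before the start, chr2:119350992-119351241, plus strand: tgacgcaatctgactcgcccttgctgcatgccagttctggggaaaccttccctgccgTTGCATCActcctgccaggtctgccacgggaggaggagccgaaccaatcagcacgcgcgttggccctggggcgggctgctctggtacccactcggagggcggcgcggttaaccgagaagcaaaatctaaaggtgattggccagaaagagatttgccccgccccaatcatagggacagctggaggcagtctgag
Fgf21, 30 bases, chr7:45615611-45615640, minus strand: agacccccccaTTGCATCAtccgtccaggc
Trib3, 30 bases, chr2:152344028-152344057, minus strand: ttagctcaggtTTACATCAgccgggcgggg
Asns, 30 bases, chr6:7693214-7693243, minus strand: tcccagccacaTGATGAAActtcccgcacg

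Chac1 and Fgf21 held the identical 8 letters, beginning 193 and 139 bases before the start on the strand opposite to the gene. The Asns match lay 23 bases before the start on the strand of the gene, and the Trib3 match began at base 15 after it. Of 32851 RefSeq windows of the same length, 3.97% held TGATGNAA. Of the other motifs searched, which share no full match with that element, the cAMP response element TGACGTCA was present at Ppp1r15a (12 bases before the start) and in 1.79% of windows. The E-box CACGTG, the type of site used by the clock factors BMAL1 and CLOCK, was present at Fgf21 (50 bases before the start), in 1 of 2 Gdf15 windows (83 bases before that start) and in 7.15% of windows. None of the 3 motifs was found in these windows at Atf4, Ddit3 or Sesn2, which says only that those letters are not there. The presence of a motif is a description of the sequence and no evidence of binding.

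In the muscles the 9 genes spanned a wide range of levels, and 2 of them were close to undetected. Levels between genes are given in FPKM, fragments scaled by transcript length and library size, as means over all 48 mice with the lowest and highest mouse. Atf4 was the most abundant, at 58.5 FPKM (47.0 to 77.3). Chac1 followed at 17.5 FPKM and was the most variable, running from 3.11 to 48.4. Ddit3 averaged 9.43 FPKM (6.13 to 14.6) and Ppp1r15a 6.27 FPKM (4.37 to 8.67). The amounts of Sesn2 (1.27 FPKM, 0.729 to 1.69), Trib3 (0.617 FPKM, 0.199 to 1.09) and Asns (0.388 FPKM, 0.193 to 0.680) were low, while Gdf15 averaged 0.0444 and Fgf21 0.00510 FPKM. Between neighbours in this order the ranges over mice overlapped, except between Ppp1r15a and Sesn2, whose ranges were separate.

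**Figure D1:**
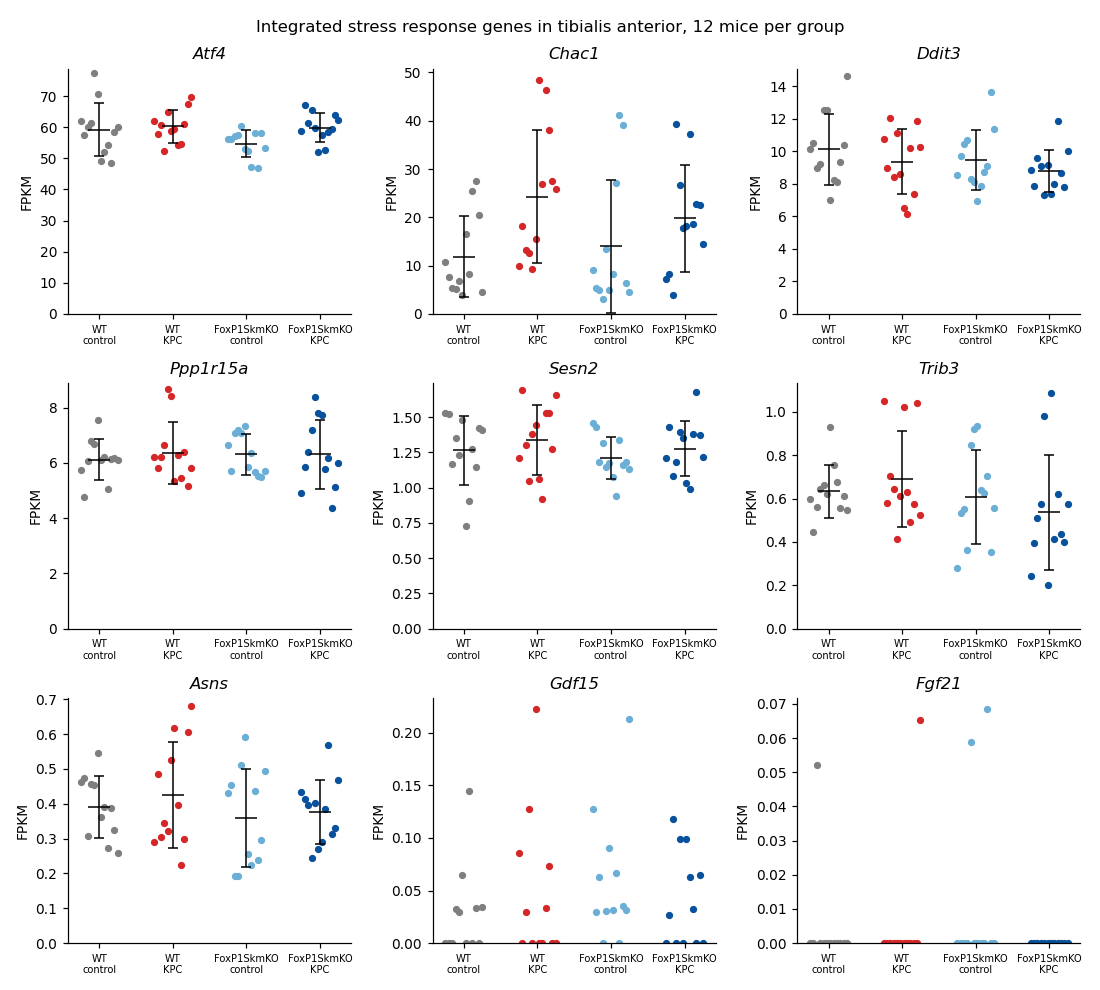
Expression of the 9 genes in FPKM (vertical axes start at 0 and differ between panels), with 1 point per mouse, ordered by circadian time within each of the 4 genotype and condition groups; black bars give the mean and SD of 12 mice and are omitted for Gdf15 and Fgf21, in which many mice had no read. In WT mice every KPC point of Chac1 lies above the control median of 7.93 FPKM, while the groups of the other genes overlap throughout.

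The libraries held 14480867 to 20787784 counted reads (median 16602092). The 9 genes gave 113540 reads in all for Atf4, 22937 for Chac1, 15150 for Ppp1r15a, 13304 for Ddit3, 3638 for Sesn2, 1075 for Trib3 and 871 for Asns, but 67 for Gdf15 and 4 for Fgf21, and 7 of 9 genes passed the filter on low counts. Summed FPKM of 10 muscle fiber markers lay between 53511 and 75608 in all libraries, so the defining markers of the labelled tissue were abundant throughout. Of these 10, 1 was called higher with tumor in WT mice, where 1.79% of all genes were called. In controls 2 were called lower in FoxP1SkmKO than WT mice, where 3.44% were called. The 10 liver markers had a median log2 difference of 2.64 in that genotype comparison, with 0 called. Foxp1 itself, the targeted gene, had a median of 0.615 FPKM in WT controls (0.430 to 0.971) and 0.585 in FoxP1SkmKO controls (0.430 to 0.642). Its difference between genotypes was −0.11 on the log2 scale in controls (edgeR adjusted p = 0.459) and −0.20 in KPC mice (adjusted p = 0.246), and whole-gene counts, which also draw on cells without Cre, do not check the deletion of an exon. Of 10 liver markers, the summed FPKM was at most 10.5 in all but 2 libraries and reached 210 in FoxP1SkmKO KPC CT18 replicate 2 and 71.0 in FoxP1SkmKO control CT22 replicate 1. In bulk muscle a change in the share of a cell type and a change of RNA per cell cannot be told apart.

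Chac1 (ENSMUSG00000027313, chr2:119181710-119184862, plus strand, build mm39 here and for the other genes), which encodes the γ-glutamylcyclotransferase that degrades glutathione, was the member that differed between tumor-bearing and control mice. In WT mice it averaged 11.9 ± 8.46 FPKM (SD, n = 12) in controls and 24.3 ± 13.8 FPKM (SD, n = 12) in KPC mice. In WT controls the lowest, median and highest mice were at 3.87, 7.93 and 27.5 FPKM, and in WT KPC mice at 9.37, 22.0 and 48.4 FPKM. Thus all 12 of the KPC mice lay above the control median, although the ranges overlapped. Means of the 2 mice at a time ran from 5.30 to 26.4 FPKM in WT controls. In WT KPC mice they ran from 12.4 to 42.2 FPKM, so the mice are given by time. The 2 control mice had 10.8 and 7.67 FPKM at CT18, 5.42 and 5.19 at CT22, 6.77 and 3.87 at CT26, 16.6 and 8.20 at CT30, 25.4 and 27.5 at CT34, and 20.5 and 4.44 at CT38. The 2 KPC mice had 9.83 and 18.1 FPKM at CT18, 13.1 and 12.6 at CT22, 9.37 and 15.5 at CT26, 48.4 and 26.8 at CT30, 46.4 and 38.0 at CT34, and 27.5 and 25.8 at CT38. Both KPC mice were above both controls at 5 of 6 times, CT18 being the exception. How many of all genes separated in this way was not counted. Such counts, here and for the other members, are therefore descriptions only.

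In FoxP1SkmKO mice Chac1 averaged 14 ± 13.8 FPKM (SD, n = 12) in controls and 19.8 ± 11 FPKM (SD, n = 12) in KPC mice. Controls had 9.18 and 5.32 FPKM at CT18, 5.01 and 3.11 at CT22, 13.5 and 4.92 at CT26, 8.21 and 27.1 at CT30, 41.2 and 39.1 at CT34, and 6.31 and 4.61 at CT38. KPC mice had 7.32 and 8.29 FPKM at CT18, 3.89 and 39.3 at CT22, 26.8 and 17.8 at CT26, 18.2 and 37.2 at CT30, 18.5 and 22.8 at CT34, and 22.5 and 14.5 at CT38. Both KPC mice were above both controls at 2 times (CT26 and CT38), both were below at CT34, and the groups overlapped at 3 times. In all, 11 of 12 KPC mice lay above the control median of 7.26 FPKM. The 2 KPC mice at CT22, at 3.89 and 39.3 FPKM, stood further apart than the 2 mice of any other of the 24 groups.

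**Figure D2:**
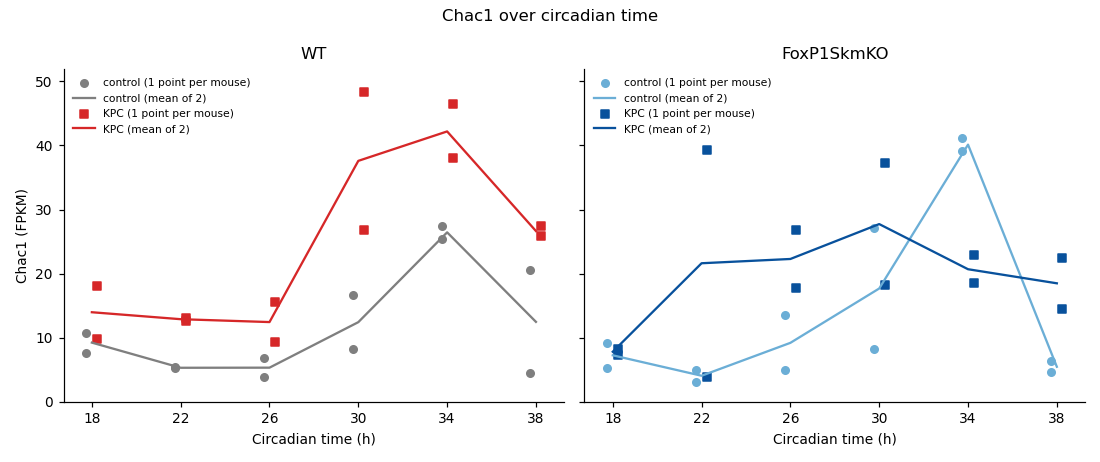
Chac1 in FPKM (vertical axis) against circadian time in hours (horizontal axis) in WT and FoxP1SkmKO mice, with 1 point per mouse and lines through the means of 2 mice for control and KPC. The highest control means, 26.4 FPKM in WT and 40.1 FPKM in FoxP1SkmKO mice, are both at CT34, where the WT KPC mean is 42.2 FPKM and the FoxP1SkmKO KPC mean lies below its controls.

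Averaged over the 6 times, Chac1 was 2.11-fold higher in WT KPC than in WT control mice (log2 fold change 1.08, SE 0.26, 95% CI 0.55 to 1.60). This passed the test across 15637 genes (edgeR quasi-likelihood, Benjamini-Hochberg adjusted p = 0.0257), in which 280 genes, 1.79% of those tested, were called. In FoxP1SkmKO mice the difference was 0.88 (SE 0.26, 95% CI 0.35 to 1.41) and did not pass the same test (edgeR adjusted p = 0.109), in which 67 genes, 0.428%, were called. The estimates did not differ detectably between genotypes: WT minus FoxP1SkmKO was 0.20 (SE 0.37, 95% CI −0.55 to 0.94; edgeR adjusted p = 0.951), so a call in WT and none in FoxP1SkmKO mice does not show that FoxP1 changed the response. Without the filter on low counts Chac1 also passed in FoxP1SkmKO mice (0.88, edgeR adjusted p = 2.6e-51), in a fit that used a variance of 0.763 for Chac1 in place of 17.1. For no gene of the 15637 did the KPC effect pass the test of a difference between genotypes (0%), with 1020 at an unadjusted p under 0.05 and 0 called by DESeq2.

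The WT call was close to the threshold. It was lost when any 1 of 6 libraries was left out, with adjusted p from 0.0528 to 0.0728, and without CT26, CT30 or CT34, while the fold change stayed between 0.96 and 1.32 on the log2 scale over all single libraries left out. In FoxP1SkmKO mice 1 library decided the value: without KPC CT22 replicate 2, the mouse at 39.3 FPKM, the log2 difference was 0.47 (edgeR adjusted p = 0.512), and without KPC CT22 replicate 1, the mouse at 3.89 FPKM, it was 1.02 and passed (edgeR adjusted p = 0.0104). Of 10 macrophage markers, 10 had a fitted tumor difference above 0 in WT mice (median 0.25), 1 was called (Ptprc, the common leukocyte antigen CD45, 0.80, SE 0.22, edgeR adjusted p = 0.0467), and their summed FPKM had medians of 28.7 in controls and 33.7 in KPC mice, with ranges of 13.3 to 48.6 and 18.4 to 75.4. In FoxP1SkmKO mice the macrophage markers had a median tumor difference of 0.09, with 7 of 10 above 0 and 0 called. Liver markers had a median difference of 1.68 in WT and −0.49 in FoxP1SkmKO mice with 0 of 10 called, and their sums reached 3.43 FPKM in WT control and 10.5 FPKM in WT KPC mice. The part of either list in the Chac1 result was not tested. In the 2 libraries rich in liver markers Chac1 stood at 8.29 and 5.01 FPKM, and without each of them in turn the FoxP1SkmKO difference was 0.86 and 0.94.

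The other 6 tested members did not pass the averaged test in either genotype. In WT mice 1 of 7 members was called, against 1.79% of all genes, and the median difference of the 7 was 0.09 on the log2 scale, against 0.00 over all genes. In FoxP1SkmKO mice 0 of 7 were called by edgeR and 0 of the 5 to which DESeq2 gave an adjusted p, with 2 (Chac1 and Atf4) at an unadjusted p under 0.05, against 12.4% of all genes, and a median difference of 0.07 against 0.00 over all genes. The WT and FoxP1SkmKO values come from separate mice.

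**Figure D3:**
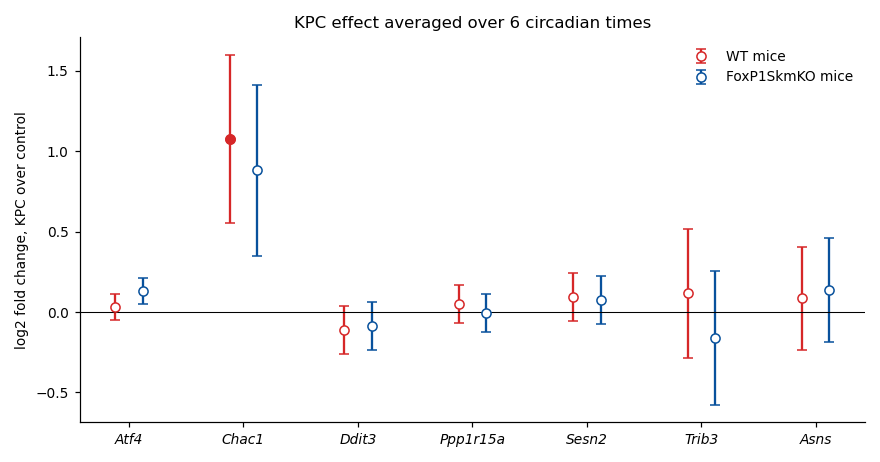
Difference between KPC and control mice as log2 fold change with its 95% confidence interval (vertical axis), averaged over 6 circadian times, for the 7 members that passed the count filter, in WT and FoxP1SkmKO mice; filled points passed an adjusted p of 0.05. Chac1 lies at 1.08 in WT and 0.88 in FoxP1SkmKO mice, and the other 6 lie between −0.16 and 0.14.

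Atf4 (ENSMUSG00000042406, chr15:80139385-80141742, plus strand), the transcription factor at the head of the pathway, was nearly level. Its mean was 59.2 ± 8.36 FPKM (SD, n = 12) in WT control, 60.2 ± 5.26 in WT KPC, 54.7 ± 4.26 in FoxP1SkmKO control and 59.9 ± 4.55 in FoxP1SkmKO KPC mice. The KPC difference was 0.03 on the log2 scale in WT mice (SE 0.04, 95% CI −0.05 to 0.11) and 0.13 in FoxP1SkmKO mice (SE 0.04, 95% CI 0.05 to 0.21; unadjusted p = 0.00267, edgeR adjusted p = 0.125). In FoxP1SkmKO mice both KPC mice were above both controls at 5 of 6 times, CT26 excepted, and 10 of 12 KPC mice were above the control median of 56.2 FPKM. As for Chac1, the share of all genes separated in this way was not counted. The WT average combined single-time values of opposite sign. At CT26 the controls, at 77.3 and 70.8 FPKM, were above the KPC mice, at 65.0 and 58.6 (log2 difference −0.27, SE 0.10, edgeR adjusted p = 0.0917), whereas at CT38 the KPC mice, at 67.3 and 69.7, were above the controls, at 58.4 and 59.9 (0.21, SE 0.10, edgeR adjusted p = 0.465). The test of whether the WT tumor effect varied among times gave an unadjusted p of 0.00775 and an edgeR adjusted p of 0.208 for Atf4, against 138 genes (0.883%) called. The WT controls at CT26 had the highest Atf4 of all, and the averaged FoxP1SkmKO minus WT difference in controls was −0.11 (SE 0.04, edgeR adjusted p = 0.137), or −0.050 without CT26 (edgeR adjusted p = 0.682).

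Ddit3 (ENSMUSG00000025408, chr10:127126643-127132157, plus strand), which encodes the transcription factor CHOP, had its lowest mean of 2 mice at CT30 in every genotype and condition. Its level at CT30 was 7.0 and 8.22 FPKM in WT control, 6.52 and 6.13 in WT KPC, 6.96 and 7.88 in FoxP1SkmKO control and 7.35 and 8.00 in FoxP1SkmKO KPC mice. Single mice of other times overlapped these: FoxP1SkmKO KPC mice had 8.85 and 7.86 FPKM at CT18 and 7.29 and 9.16 at CT26. The common lowest time was not tested. Over all times it averaged 10.1 ± 2.18 FPKM in WT control, 9.35 ± 2.00 in WT KPC, 9.45 ± 1.84 in FoxP1SkmKO control and 8.79 ± 1.30 in FoxP1SkmKO KPC mice (SD, n = 12 each). The KPC difference was −0.11 in WT mice (SE 0.07) and −0.09 in FoxP1SkmKO mice (SE 0.07), with edgeR adjusted p of 0.495 and 0.689. Its furthest difference at a single time was in FoxP1SkmKO mice at CT38, where the controls had 13.7 and 11.4 FPKM and the KPC mice 7.78 and 10 (log2 difference −0.49, SE 0.18, edgeR adjusted p = 0.464). Ddit3 overlaps 68 bases of the gene Mars1 on the opposite strand, which averaged 21.7 FPKM, and the strand used in counting was not stated. A second annotated Ddit3 entry had 0 reads in 48 libraries.

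Trib3 (ENSMUSG00000032715, chr2:152179342-152185952, minus strand), a pseudokinase induced by ATF4 and CHOP, was low and scattered between mice. The WT controls ran from 0.446 to 0.930 FPKM (median 0.614) and the WT KPC mice from 0.413 to 1.05 (median 0.623), so that the groups overlapped almost fully. The FoxP1SkmKO controls ran from 0.277 to 0.935 FPKM (median 0.590) and the FoxP1SkmKO KPC mice from 0.199 to 1.09 (median 0.473). The KPC difference was 0.12 in WT mice (SE 0.20) and −0.16 in FoxP1SkmKO mice (SE 0.20), and at CT26 the 2 FoxP1SkmKO KPC mice alone spanned 0.980 to 0.199 FPKM. The 12 libraries of a group held 232 to 302 Trib3 reads in all, and the 95% CI of the WT difference ran from 0.822-fold to 1.43-fold.

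Asns (ENSMUSG00000029752, chr6:7675169-7693254, minus strand), the enzyme that makes asparagine from aspartate and glutamine, had its widest gap at CT38. At that time in WT mice it was 0.323 and 0.259 FPKM in the controls and 0.607 and 0.680 FPKM in the KPC mice, the highest mean of the 24 groups. That difference was 1.14 on the log2 scale (SE 0.38, unadjusted p = 0.00531) and did not pass (edgeR adjusted p = 0.325). Averaged over times, the KPC difference was 0.09 (SE 0.16) in WT and 0.14 (SE 0.16) in FoxP1SkmKO mice, and without CT38 the WT value was −0.12. At CT26 the FoxP1SkmKO mice showed the opposite order, 0.513 and 0.593 FPKM in controls against 0.403 and 0.270 in KPC mice (−0.73, SE 0.37, edgeR adjusted p = 0.575).

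Sesn2 (ENSMUSG00000028893, chr4:132219343-132237812, minus strand), a stress-induced inhibitor of mTORC1, had, like Ddit3, its lowest mean of 2 mice at CT30 in all 4 genotype and condition groups. It had 0.729 and 0.903 FPKM there in WT control, 1.06 and 0.921 in WT KPC, 1.08 and 0.940 in FoxP1SkmKO control and 1.03 and 0.990 in FoxP1SkmKO KPC mice. The highest time means were 1.52 FPKM in WT control (CT18) and 1.53 FPKM in WT KPC mice (CT34), 1.44 in FoxP1SkmKO control (CT18) and 1.53 in FoxP1SkmKO KPC mice (CT34). At CT34 both KPC mice were above both controls in each genotype, with 1.53 and 1.53 against 1.27 and 1.15 FPKM in WT mice (log2 difference 0.34, SE 0.18, edgeR adjusted p = 0.833). The averaged KPC difference was 0.09 (SE 0.07) in WT and 0.07 (SE 0.07) in FoxP1SkmKO mice.

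Ppp1r15a (ENSMUSG00000040435, chr7:45172340-45175692, minus strand), whose product GADD34 brings the phosphatase to eIF2 and so closes the response, had its highest mean of 2 mice at CT26 in all 4 groups. In controls the mice of CT22 were close, at 6.05 and 6.80 FPKM in WT and 7.10 and 7.20 in FoxP1SkmKO mice, so the order there is unresolved. The 2 mice at CT26 had 6.68 and 7.57 FPKM in WT control, 8.67 and 8.43 in WT KPC, 7.09 and 7.33 in FoxP1SkmKO control and 8.40 and 7.82 in FoxP1SkmKO KPC mice. At CT26 both KPC mice thus lay above both controls in each genotype, by 0.26 (SE 0.14, edgeR adjusted p = 0.293) and 0.16 (SE 0.14, edgeR adjusted p = 0.762) on the log2 scale. Averaged over times the difference was 0.05 (SE 0.06) in WT and −0.01 (SE 0.06) in FoxP1SkmKO mice, the latter with a 95% CI of −0.13 to 0.11. Ppp1r15a overlaps 717 bases of Tulp2 on the opposite strand, which averaged 0.0157 FPKM.

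The secreted hormones of the pathway were barely detected in this muscle. Fgf21 (ENSMUSG00000030827, chr7:45263310-45264914, minus strand), a hormone released in mitochondrial and nutritional stress, gave 1 read in WT control, 1 in WT KPC, 2 in FoxP1SkmKO control and 0 in FoxP1SkmKO KPC mice. The 0 reads in that last group allow at most 3 reads over its 12 libraries, or 0.0146 CPM (counts scaled by library size), a limit for counting error only. Gdf15 (ENSMUSG00000038508, chr8:71082043-71085106, minus strand), a hormone that lowers food intake and is often raised in cancer, gave 10 reads in 6 of 12 WT control libraries, 18 in 6 of 12 WT KPC, 23 in 10 of 12 FoxP1SkmKO control and 16 in 7 of 12 FoxP1SkmKO KPC libraries. The most in 1 library was 7 reads. Both genes fell below the count filter, so no difference of any size was tested, and small differences could not be detected at these counts.

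No member passed the test between genotypes, which used the same mice as the tumor comparisons. In controls 0 of 7 passed for FoxP1SkmKO against WT, with 1 (Atf4) at an unadjusted p under 0.05 against 17.2% of all genes, while 538 genes (3.44%) were called. In KPC mice 0 of 7 passed, with 0 at an unadjusted p under 0.05 against 10.8% of all genes, while 50 genes (0.32%) were called. DESeq2 called 0 members in both. For Chac1 the FoxP1SkmKO minus WT difference was −0.01 in controls (95% CI −0.56 to 0.53) and −0.21 in KPC mice (95% CI −0.71 to 0.29), the control interval running from 0.677-fold to 1.45-fold. The value in KPC mice ran from −0.62 to −0.066 over single libraries left out, and without the filter on low counts it passed (−0.21, edgeR adjusted p = 0.00941). Trib3 had the largest of the 7 differences in KPC mice, at −0.38 (SE 0.20, edgeR adjusted p = 0.495).

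At single circadian times 0 of 7 members passed in either genotype. In WT mice, from CT18 to CT38, the tumor effect was called for 0%, 0%, 7.17%, 0.0064%, 0% and 0.0256% of the 15637 genes. In FoxP1SkmKO mice the shares were 0.0192%, 0%, 0.0384%, 0%, 0% and 0.0064%. CT26 in WT mice, with 1121 genes called, was the time at which calls were common, and there the median of the 7 members was −0.24 on the log2 scale, with 3 of 7 above 0. The members at an unadjusted p under 0.05 were Atf4 at CT26, Chac1 at CT30 and Atf4 and Asns at CT38 in WT mice, and Chac1 at CT22 and Chac1 and Ddit3 at CT38 in FoxP1SkmKO mice. Of all genes, 21.4%, 5.21% and 9.82% had such a p at those times in WT mice and 4.69% and 8.05% in FoxP1SkmKO mice. The Chac1 difference in WT mice was above 0 at all 6 times, at 0.60, 1.27, 1.21, 1.59, 0.69 and 1.09 from CT18 to CT38, with edgeR adjusted p from 0.312 to 1. With 2 mice a group, single libraries moved these values, from 0.10 to 0.98 at CT18, from 0.78 to 1.66 at CT26, from 1.10 to 2.20 at CT30 and from 0.38 to 2.58 at CT38. In FoxP1SkmKO mice it was 0.13, 2.42, 1.27, 0.66, −0.95 and 1.76, with edgeR adjusted p from 0.503 to 1. DESeq2 on all libraries called Chac1 at 0 times in either genotype. It gave Chac1 no adjusted p in WT mice at CT22 or in FoxP1SkmKO mice at CT18 and CT26, so those times count neither way. Over single libraries left out, the FoxP1SkmKO value spanned −0.23 to 0.56 at CT18, −0.050 to 3.29 at CT22 and 0.72 to 2.17 at CT26. The ranges were 0.04 to 1.75 at CT30, −1.11 to −0.81 at CT34 and 1.41 to 2.04 at CT38. With the spread estimated from the 4 libraries of a time alone, edgeR called Chac1 in WT mice at CT22 and CT26 and, in opposite directions, in FoxP1SkmKO mice at CT34 (lower) and CT38 (higher). DESeq2 on the same 4 libraries called Chac1 at those times and also in WT mice at CT34. The fit without the filter on low counts called it at 6 of 6 times in WT mice and, except at CT18, at 5 of 6 in FoxP1SkmKO mice. For Chac1 the test that the effect varied among times gave an unadjusted p of 0.862 in WT mice and 0.0102 in FoxP1SkmKO mice (edgeR adjusted p = 0.356), where 0 genes (0%) passed, with 1526 at an unadjusted p under 0.05 and 63 called by DESeq2.

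Rhythms over the day were read by fitting a 24-h sinusoid to the FPKM of the 12 mice of each genotype and condition and calling genes at an unadjusted F-test p under 0.01. By that rule 4.92% of genes were called in WT control, 4.22% in WT KPC, 4.07% in FoxP1SkmKO control and 2.63% in FoxP1SkmKO KPC mice. Of the members, 0 of 7 were called in WT control, 1 in WT KPC, 2 in FoxP1SkmKO control and 0 in FoxP1SkmKO KPC mice. Chac1 was called in WT KPC mice, with an amplitude of 67.1% of its mean and a peak at CT33.4 (sinusoid F test, p = 0.00146, Benjamini-Hochberg adjusted p = 0.112, n = 12). It was not called in the other 3 groups, where the fitted amplitude was 74.5% with a peak at CT34.5 in WT control (p = 0.0170, n = 12), 98.6% with a peak at CT32.8 in FoxP1SkmKO control (p = 0.0302) and 36.7% with a peak at CT29.3 in FoxP1SkmKO KPC mice (p = 0.296). In FPKM the amplitude was 8.84 in WT control, 16.3 in WT KPC, 13.8 in FoxP1SkmKO control and 7.25 in FoxP1SkmKO KPC mice. Without 1 library Chac1 was also called in WT control (without CT38 replicate 2, p = 0.00036, n = 11) and FoxP1SkmKO control mice (without CT30 replicate 1, p = 0.00867, n = 11). No other library left out gave a call there, with F test p up to 0.0580 in WT control and 0.0901 in FoxP1SkmKO control mice (n = 11).

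Ppp1r15a was called in FoxP1SkmKO controls, with an amplitude of 14.5% and a peak at CT24.0 (F test, p = 0.000151, n = 12), and it alone among members kept the call after adjustment over all genes (Benjamini-Hochberg adjusted p = 0.0427). Its fitted peaks in the other groups were close by, at CT26.2 in WT control, CT25.3 in WT KPC and CT25.9 in FoxP1SkmKO KPC mice, with p of 0.113, 0.0368 and 0.0122 and amplitudes of 10.2%, 17.2% and 21.2%. Trib3 was called in FoxP1SkmKO controls, with an amplitude of 39.7% and a peak at CT29.0 (F test, p = 0.00631, n = 12, Benjamini-Hochberg adjusted p = 0.206). Its call was lost when any 1 of 8 of the 12 libraries was left out. Ddit3 and Sesn2, whose lowest means of 2 mice fell at the same time in all groups, were not called as rhythmic in any with all 12 mice. With 1 library left out (n = 11), a few refits called members that the full groups did not. The lowest F test p was 0.00168 for Sesn2 in WT control and 0.00706 in FoxP1SkmKO control mice (n = 11). It was 0.00823 for Ddit3 in FoxP1SkmKO control and 0.00732 for Asns in WT control mice (n = 11). In FoxP1SkmKO KPC mice it was 0.00531 for Atf4 and 0.00591 for Ppp1r15a (n = 11). Each call came from leaving out 1 particular library, or either of 2 for Ppp1r15a, and the other refits gave none. The highest F test p, in the same order, was 0.0665, 0.122, 0.121, 0.231, 0.0858 and 0.0444 (n = 11). With all libraries, 0 of 7 members passed when the rhythms of KPC and control mice were tested against each other, at an unadjusted p of 0.05 that 5.07% of genes passed in WT and 5.09% in FoxP1SkmKO mice. The lowest member value was 0.0615, for Atf4 in WT mice, and for Chac1 it was 0.131 in WT and 0.214 in FoxP1SkmKO mice. Atf4 passed in WT mice when any 1 of 6 of the 24 libraries was left out (lowest p = 0.030, n = 23), Trib3 in WT mice without KPC CT30 replicate 1 (p = 0.0236) and Ppp1r15a in FoxP1SkmKO mice without KPC CT30 replicate 2 (p = 0.0468).

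**Figure D4:**
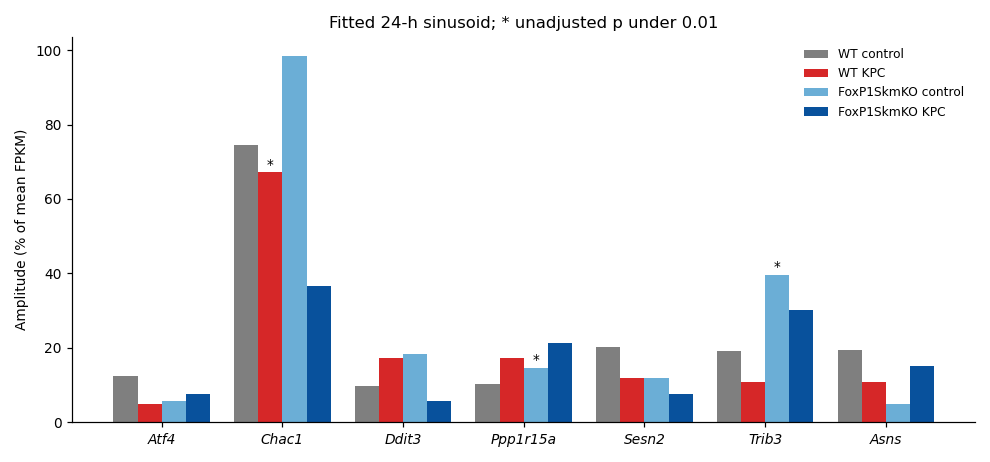
Amplitude of the fitted 24-h sinusoid as a percentage of the mean FPKM (vertical axis, from 0) for the 7 tested members in the 4 genotype and condition groups of 12 mice; asterisks mark an unadjusted p under 0.01. Chac1 has the tallest bar within each group, from 36.7% to 98.6%, but only the WT KPC bar is marked, while the Ppp1r15a bar marked in FoxP1SkmKO controls stands at 14.5%.

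Other genes of the pathway were counted in 7 lists for the tumor effect averaged over times, beside the shares of all genes called, 1.79% in WT and 0.428% in FoxP1SkmKO mice. Of 16 genes for the eIF2 kinases, eIF2 subunits, eIF2 phosphatase and related factors (the Eif2b genes, Impact and Gcn1), 0 were called in either genotype. The 4 kinases that start the response stood in WT mice at 0.03 (Eif2ak1, HRI), 0.15 (Eif2ak2, PKR), 0.02 (Eif2ak3, PERK) and 0.03 (Eif2ak4, GCN2) on the log2 scale. Of 14 ATF4-linked transcription factors and regulators, 0 were called in either genotype, with list medians of 0.09 in WT and 0.06 in FoxP1SkmKO mice. Among them Cebpb, a bZIP factor of the C/EBP family, stood at 0.38 (SE 0.12, edgeR adjusted p = 0.0943) in WT and 0.35 (SE 0.12, edgeR adjusted p = 0.166) in FoxP1SkmKO mice. Ddit4, the mTORC1 inhibitor REDD1, stood at 0.41 (SE 0.18) and 0.47 (SE 0.17), whereas Atf3 stood at 0.06 (SE 0.17) and 0.00 (SE 0.14).

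Of 14 enzymes of amino acid synthesis and one-carbon metabolism, 0 were called. Phgdh and Psat1, the first enzymes of serine synthesis, stood at −0.53 (SE 0.25) and −0.31 (SE 0.26) in WT mice, and the mitochondrial enzyme Mthfd2 at 0.13 (SE 0.09). Of 11 tested amino acid transporters, 1 was called in WT and 0 in FoxP1SkmKO mice. The called gene was Slc3a2, the heavy chain shared by several amino acid exchangers, which rose by 0.24 on the log2 scale in WT mice (SE 0.05, edgeR adjusted p = 0.00475), a call lost without CT38 (0.19, edgeR adjusted p = 0.0633). Of 20 cytosolic aminoacyl-tRNA synthetases, which charge tRNAs for translation, 0 were called in either genotype, with medians of 0.03 in WT and 0.05 in FoxP1SkmKO mice. In WT mice 14 of 20 lay above 0 and 5 had an unadjusted edgeR p under 0.05, against 15.2% of all genes. In FoxP1SkmKO mice 16 of 20 lay above 0 and 8 had such a p, against 12.4% of all genes. Of 22 genes of the unfolded protein response of the endoplasmic reticulum 0 were called, and Hspa5, the chaperone BiP, stood at −0.12 (SE 0.04, edgeR adjusted p = 0.0743) in WT mice and 0.01 in FoxP1SkmKO mice. Of 11 genes of the mitochondrial stress response 0 were called. An unadjusted edgeR p under 0.05 was held in WT and FoxP1SkmKO mice by 1 and 0 of the 16 eIF2 genes. For the 14 regulators the counts were 4 and 3, for the 14 enzymes 2 and 1 and for the 11 transporters 1 and 2. For the 22 unfolded protein response genes they were 2 and 2, and for the 11 mitochondrial genes 1 and 1. Of the pathway lists, counts above 0 are given here for the synthetases alone. Between genotypes, 1 of the 14 regulators passed in controls, where 3.44% of all genes were called, and 1 of the 22 unfolded protein response genes in KPC mice, where 0.32% were called. In the other lists 0 passed. Trib1, a pseudokinase related to Trib3, was higher in FoxP1SkmKO than WT controls by 0.32 (SE 0.08, edgeR adjusted p = 0.0239), and Herpud1, which acts in degradation at the endoplasmic reticulum, was higher in FoxP1SkmKO than WT KPC mice by 0.17 (SE 0.03, edgeR adjusted p = 0.0151). The genes given here with a value, other than Slc3a2, were picked with their values in view.

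**Figure D5:**
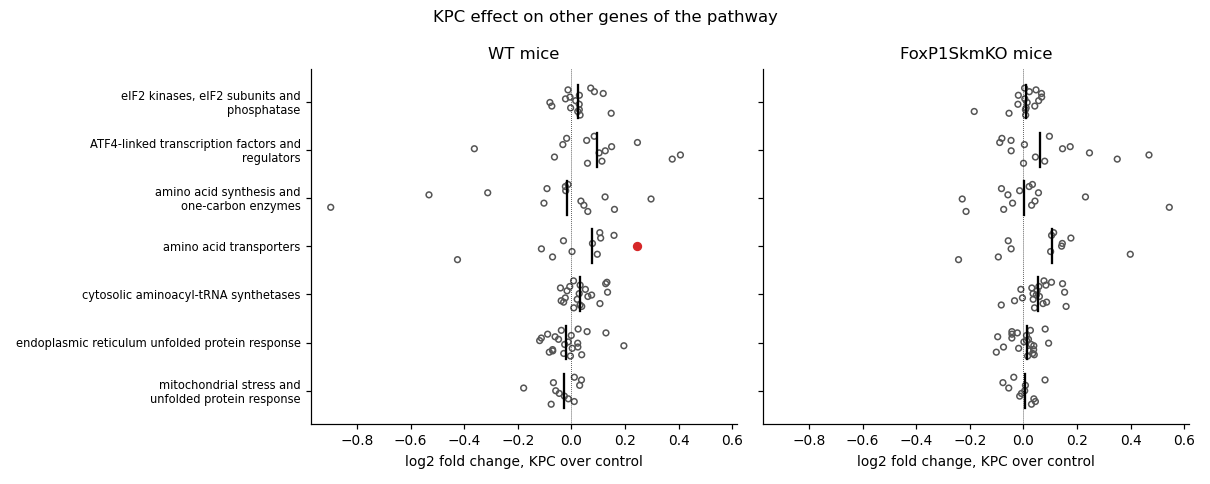
Difference between KPC and control mice as log2 fold change (horizontal axis), averaged over 6 times, for the tested genes of 7 pathway lists in WT and FoxP1SkmKO mice, with 1 point per gene, black lines at the list medians and a filled point for a gene that passed an adjusted p of 0.05. The 1 filled point is Slc3a2 in WT mice at 0.24, and the list medians lie between −0.03 and 0.11.

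Among the 21 pairs of the 7 tested members, Pearson's r of log2 CPM ran from −0.43 (Ddit3 and Chac1) to 0.48 (Atf4 and Sesn2) with a median of −0.0057, and 0 pairs were above 0.5. The next highest were Atf4 and Ddit3 at 0.40 and Ddit3 and Sesn2 at 0.39. Atf4 and Chac1, the factor and a gene it is known to induce, had an r of −0.18. Over deviations from the means of the 24 groups, r was 0.37 for Atf4 and Sesn2, 0.34 for Atf4 and Trib3 and 0.09 for Atf4 and Chac1. These values are descriptions over libraries that share their circadian times, tumor state and genotype.

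The genes most like each member over the 48 libraries, by the same r among 12631 other genes, lay outside the 7 pathway lists. For Chac1 they were Flvcr1 (0.75), a transporter of heme and choline, Klhl21 (0.74), an adaptor of a ubiquitin ligase, and Pim3 (0.73), a serine/threonine kinase. For tumor in WT mice Pim3 passed the test, with a log2 difference of 0.30 (edgeR adjusted p = 0.0311), where 1.79% of all genes were called. Flvcr1 (0.61, edgeR adjusted p = 0.0865) and Klhl21 (0.08, edgeR adjusted p = 0.507) did not pass. These genes were picked by their r with Chac1 over the same libraries, so the Pim3 call is not separate evidence. For Atf4 the nearest were Ctsd (0.75), the lysosomal protease cathepsin D, P4ha2 (0.72), a collagen prolyl hydroxylase, and Jtb (0.72). For Ddit3 they were Ifrd1 (0.74), Mad2l1bp (0.67) and Ip6k3 (0.67), and for Ppp1r15a Cpeb1 (0.73), Naa40 (0.70) and Sh3glb2 (0.67). For the less abundant members the likeness was weaker: Kcnj8 (0.62), Rin2 (0.59) and Fabp4 (0.57) for Trib3, Plekhh3 (0.62), Abhd6 (0.60) and Osgin1 (0.60) for Sesn2, and Fam222b (0.44), Ctsb (0.43) and Atp6v0d1 (0.43) for Asns.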

How the data were processed

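RNA from 48 tibialis anterior muscles had been sequenced, and the authors deposited, per gene, raw read counts in tables of 4 libraries each and FPKM for all libraries. The submitters' processing notes name HISAT2 2.0.5, DESeq2 1.20.0 and build mm39, whereas the study's methods name another aligner and counter, and the library text allows for either a directional or a non-directional kit. The count tables list genes with at least 2 reads over their 4 libraries, and the single reads they leave out (367 to 1064 per library) were recovered from the deposited FPKM, which gave whole numbers within 1e-06. Fold changes and p-values of the authors' own comparisons in those tables were not used. A total of 0 columns of other samples was found.

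Groups came from the labels. Counts were fitted for all 24 groups with edgeR 4.0.16 (R 4.3.3; filterByExpr, TMM, quasi-likelihood F test, prior df 8.61), and contrasts were averaged over the 6 times, taken at each time, or tested for variation among times, with Benjamini-Hochberg adjustment over 15637 genes at 0.05. Groups averaged over times are given as mean ± SD of 12 mice, an SD that includes the differences between times, while the tests used the spread within the 24 groups. Rhythms were 24-h sinusoids fitted to FPKM (2 and 9 degrees of freedom, scipy 1.17.1) at an unadjusted p under 0.01, and differences in rhythm were tested on 18 degrees of freedom at 0.05. Reads of the 2 mice of a group differed by more than sampling noise (chi-square per degree of freedom of 4.79 to 15.8 over the 24 groups). Intervals and limits for a count of 0 cover counting error only, and mice of a group were taken as replicates. The scripts were tested on simulated data. Alternatives were RLE scaling, no count filter, the replicate number as a block, DESeq2 1.42.0, limma 3.58.1 on log2(FPKM + 1) and log2(FPKM + 0.1), fits on the 4 libraries of a time, and each library left out. Leaving out each circadian time was added after seeing the data.

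The 9 genes and the pathway and marker lists were chosen with earlier results of these data known. All 172 listed symbols were matched. Beside the members, the naming rule took up to 4 genes per pathway list with the lowest adjusted p under 0.05 for the tumor effect in either genotype, and, for each tested member, the 3 genes with the highest Pearson r of log2 CPM among genes with a mean above 0.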

Additional observations from a re-analysis of the deposited data

How the results depend on the processing

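The Chac1 difference in WT mice kept its direction under every alternative and its call under RLE scaling (edgeR adjusted p = 0.0252), the replicate block (0.0288) and DESeq2 (0.0145). It lost the call in limma with either pseudocount (adjusted p of 0.0600 and 0.0584), without WT control CT30 replicate 2 (edgeR, 0.0611) or CT38 replicate 2 (0.0528), without WT KPC CT18 replicate 2 (0.0532), CT26 replicate 2 (0.0647), CT30 replicate 1 (0.0728) or CT38 replicate 2 (0.0555), and without CT26 (0.0658), CT30 (0.0779) or CT34 (0.0702). The cause was not tested. In FoxP1SkmKO mice the log2 difference ran from 0.47 to 1.06 over single libraries left out and was 0.58 without CT22 and 1.24 without CT34. The Slc3a2 call was lost without CT38 (0.19, edgeR adjusted p = 0.0633). Reversed in sign, with no call in either direction except for Chac1 in FoxP1SkmKO mice at CT22, were Chac1 between genotypes in controls (0.0131 and 0.0011 in limma; −0.20 to 0.24 over libraries; 0.06, 0.06 and 0.23 without CT18, CT22 and CT38), the Chac1 difference between genotypes without CT34 (−0.088, and −0.088 to 0.61 over all libraries and times), Chac1 in FoxP1SkmKO mice at CT18 (−0.23 to 0.56 over libraries) and CT22 (−0.050 to 3.29, the higher value called), Atf4 in WT mice (−0.0052 without CT38 to 0.088 without CT26), Asns in WT mice (−0.12 without CT38 to 0.17 without CT34), Atf4 between genotypes in KPC mice (−0.041 without CT22 to 0.022 without CT26) and Ppp1r15a in FoxP1SkmKO mice (−0.053 to 0.031). The Trib3 rhythm in FoxP1SkmKO controls also lost its call under the replicate block (p = 0.0108, n = 12), while that of Ppp1r15a kept it throughout. Over 2871 values of single genes under alternatives, 2768 kept direction and side of the threshold, 23 lost a call, 43 gained one and 37 changed sign. Most of these values were not called in the main fit, and many refits left out a library outside the comparison. The agreement therefore says little about the few called values.

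Counts of called genes moved more. Without the count filter they were 794 (WT), 527 (FoxP1SkmKO), 104 (difference), 933 and 470 (genotype in control and KPC mice), 2120 and 1678 (single times, WT and FoxP1SkmKO), and 806 and 905 (variation among times). That fit, with an infinite prior df in place of 8.61, used a quasi-likelihood variance of 0.763 for Chac1 in place of 17.1, and Chac1 passed in it for tumor in FoxP1SkmKO mice, for genotype in KPC mice and at 11 of 12 single times. DESeq2 called 159 for tumor in FoxP1SkmKO mice, 106 for genotype in KPC mice, 178 at single times in FoxP1SkmKO mice and 380 and 63 for variation. Limma called 133 and 150 in WT, 20 and 24 in FoxP1SkmKO and 27 and 28 for genotype in KPC mice with pseudocounts of 1 and 0.1. Fits on 4 libraries gave 480 (WT) and 81 (FoxP1SkmKO) with edgeR against 1126 and 10, and 197 with DESeq2 in FoxP1SkmKO mice. Rhythm calls summed over groups fell from 4410 to 432 after adjustment, and rhythm differences from 3091 to 1567 at a mean FPKM of at least 1 and to 0 after adjustment. Over single libraries left out, the counts ran from 75 to 412 (WT), 17 to 228 (FoxP1SkmKO), 0 to 4 (difference), 303 to 760 and 17 to 198 (genotype), 90 to 1366 and 1 to 233 (single times), 1 to 212 and 0 to 42 (variation), 4058 to 4504 (rhythm) and 2770 to 3349 (rhythm difference), and over circadian times left out from 110 to 269, 0 to 182, 0 to 1, 301 to 544 and 0 to 124 for the averaged comparisons.

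Same-numbered mice showed no shared deviation in expression: over 12 pairs of groups, their deviations correlated at −0.101 to 0.0854. Pairing by cage, litter or day of surgery could not be checked in this way. With the replicate block the counts were 271, 71, 0, 548, 43, 1107, 10, 115 and 0 in the order above, with 4060 rhythms and 3076 differences, each within 1.5 times the unblocked count. With 4 and 67 reads over all libraries, Fgf21 and Gdf15 are limited by depth. For Trib3 and Asns, with 1075 and 871, the 95% CIs of the WT difference ran from 0.822-fold to 1.43-fold and from 0.851-fold to 1.32-fold. A lone mouse left in a group was assumed to vary like the others.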
